A study of Homo sapiens with 15 samples.

Results

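RUNX and ETS transcription factor genes were followed in the active chromatin of MDA-MB-231, a human cell line from breast cancer without hormone receptors or HER2 amplification, and of sub-populations of it that metastasize to lung (LM2) or brain (BrM2). The genes were RUNX1, RUNX2, RUNX3, ETS1, ELK3, ERG, FLI1, ETV1, ETV4 and ETV5. A peak of H3K4me3, the mark of active promoters, was a member when it lay within 2 kb of an annotated start of one of these 10 genes. A peak of H3K27ac, the mark of active promoters and enhancers, was a member when its nearest protein-coding start lay within 100 kb and belonged to one of them. This gave 13 of 22572 H3K4me3 peaks and 137 of 62195 H3K27ac peaks. The parental line (Par) had no selection step, and no line had a treatment beyond culture in 10% serum, over 3 days, before fixation (1% formaldehyde, 10 min). Each line had 2 biological replicates per mark, so LM2 and BrM2 each stand for 1 selected population and not for lung or brain metastasis in general.

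Counts in peaks totalled 3489607 to 9839629 per H3K4me3 library and 1994996 to 6450028 per H3K27ac library, where BrM2 replicate 2 was the shallowest. Values are CPM, counts scaled to a library total of 1000000 reads in peaks, and replicates 1 and 2 are always given in that order. Promoters of 6 of 6 genes that claudin-low cells such as MDA-MB-231 use, VIM among them, carried an H3K4me3 peak. Luminal markers had one at 10 of 10 genes, with a summed level of 376 to 538 CPM in Par, 314 to 434 in LM2 and 498 to 591 in BrM2. No H3K4me3 peak lay at the promoters of 6 endothelial or 8 blood cell markers, CDH5 and PTPRC included.

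RUNX proteins bind DNA through the runt domain, with CBFB as partner, at sites close to TGTGGT. RUNX1 is needed to form blood stem cells, RUNX2 directs bone formation, and RUNX3 acts in T cells and sensory neurons. Each RUNX gene has a distal and a proximal promoter that give proteins with different N-termini. ETS proteins share a DNA-binding domain that reads a GGAA core. ETS1 is the founding member, ELK3 is a ternary complex factor that works with SRF, ERG and FLI1 are factors of endothelium and blood, and ETV1, ETV4 and ETV5 form the PEA3 subfamily, which responds to ERK signalling.

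The promoters differed in base composition before any value is considered. The 250 bases before the most upstream start at a peak were read from the GRCh37 genome, on the strand of the gene, for both RUNX1 and both RUNX2 promoters, the main ETS1 promoter and ELK3. They are shown because distal and proximal promoters of a RUNX gene differed in their values, and ELK3 went the other way from ETS1 in BrM2. Capitals mark matches, on either strand, to TGTGGT or TGCGGT for RUNX and CCGGAA or CAGGAA for ETS.
RUNX2 distal promoter, chr6:45295644-45295893, plus strand: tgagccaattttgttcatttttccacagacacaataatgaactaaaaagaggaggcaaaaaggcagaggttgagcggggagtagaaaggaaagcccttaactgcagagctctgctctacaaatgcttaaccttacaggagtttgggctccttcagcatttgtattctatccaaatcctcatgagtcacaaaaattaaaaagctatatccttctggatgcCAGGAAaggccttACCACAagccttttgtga
RUNX2 proximal promoter, chr6:45389523-45389772, plus strand: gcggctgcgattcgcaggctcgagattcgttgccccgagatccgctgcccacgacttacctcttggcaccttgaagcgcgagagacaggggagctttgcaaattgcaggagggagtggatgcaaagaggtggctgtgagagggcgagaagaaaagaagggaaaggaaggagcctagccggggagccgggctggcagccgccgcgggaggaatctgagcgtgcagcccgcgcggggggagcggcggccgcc
RUNX1 distal promoter, chr21:36421642-36421891, minus strand: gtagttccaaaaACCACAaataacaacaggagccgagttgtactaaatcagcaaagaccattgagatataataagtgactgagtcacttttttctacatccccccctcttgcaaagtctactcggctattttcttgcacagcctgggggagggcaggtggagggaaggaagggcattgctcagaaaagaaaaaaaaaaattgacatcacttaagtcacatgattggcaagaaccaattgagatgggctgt
RUNX1 proximal promoter, chr21:36262088-36262337, minus strand: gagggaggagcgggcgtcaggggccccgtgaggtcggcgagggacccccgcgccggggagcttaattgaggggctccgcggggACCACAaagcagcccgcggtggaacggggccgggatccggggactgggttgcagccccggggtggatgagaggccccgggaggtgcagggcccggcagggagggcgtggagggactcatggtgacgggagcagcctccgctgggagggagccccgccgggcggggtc
ETS1 main promoter, chr11:128392206-128392455, minus strand: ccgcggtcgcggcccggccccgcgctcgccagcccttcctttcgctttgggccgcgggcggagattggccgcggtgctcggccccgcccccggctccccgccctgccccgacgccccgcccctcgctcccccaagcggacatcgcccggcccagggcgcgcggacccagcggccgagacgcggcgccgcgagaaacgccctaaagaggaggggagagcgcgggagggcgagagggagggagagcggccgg
ELK3 promoter, chr12:96587903-96588152, plus strand: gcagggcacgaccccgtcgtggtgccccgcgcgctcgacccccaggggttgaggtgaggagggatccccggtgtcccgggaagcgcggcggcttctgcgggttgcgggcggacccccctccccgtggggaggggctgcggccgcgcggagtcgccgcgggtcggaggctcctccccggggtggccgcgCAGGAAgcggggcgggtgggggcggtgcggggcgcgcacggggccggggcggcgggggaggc

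The distal RUNX windows were poor in GC and CpG. GC content was 41.6% with 1 CpG at RUNX2 and 42.8% with 2 CpG at RUNX1. Their proximal windows held 65.6% GC and 23 CpG, and 76% and 24. The main ETS1 window held 80% and 41, and the ELK3 window 82% and 37. Over 16347 windows made the same way at protein-coding promoters with H3K4me3, the median GC content was 62.4%, 15.5% of windows were under 50% GC, and 8.74% held at most 3 CpG. A RUNX match (ACCACA, the reverse of TGTGGT) stood 18 bases before the RUNX2 distal start, 238 before the RUNX1 distal start and 167 before the RUNX1 proximal start. A RUNX match of either form was in 15.9% of all windows and an ETS match in 36.5%. The RUNX2 distal window also held CAGGAA 31 bases before its start, and the ELK3 window held it 62 bases before. A match here is a description of letters, not of binding.

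H3K4me3 was strongest, per kb of peak, at the RUNX2 proximal promoter, which averaged 45.6 CPM per kb over the 6 libraries (33.1 to 57.2). ELK3 (36.2), ETV5 (33.9), ETS1 at its main promoter (24.8), RUNX1 at its proximal promoter (23.0) and ETV4 (22.1) followed. Each of these overlapped the range of the next, but the lowest ETV4 library, 18.1 CPM per kb, was above the highest of the RUNX1 distal promoter, 14.0. The RUNX1 distal promoter (11.3) and ETV1 (10.2) formed a middle level. RUNX3, the RUNX2 distal promoter, the second ETV4 peak and the remaining ETS1 peaks lay at 1.97 to 3.84 CPM per kb, with overlapping ranges. Over all H3K4me3 peaks the median was 13.2 CPM per kb. ERG and FLI1 had 0 H3K4me3 peaks within 2 kb of any start.

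**Figure D1:**
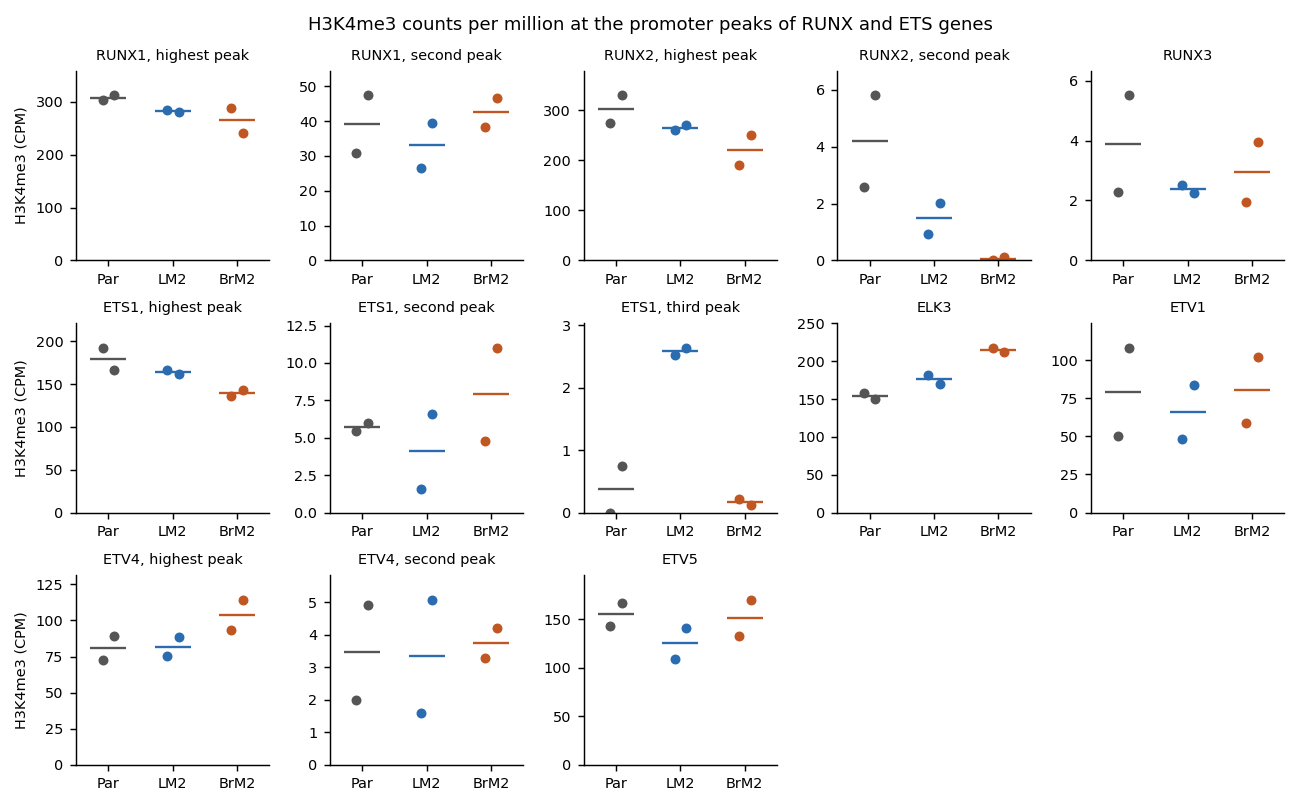
H3K4me3 CPM (vertical axis, from 0, own scale in each panel) at the 13 promoter peaks, with points for the 2 replicates of Par, LM2 and BrM2 and a line at their mean; peaks of a gene are ordered by mean level. The second RUNX2 peak, its distal promoter, falls from 2.58 and 5.81 CPM in Par to 0 and 0.124 in BrM2, whereas the ELK3 points rise from 159 and 151 in Par to 218 and 212 in BrM2.

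The RUNX2 distal promoter lost H3K4me3 in BrM2. Its 632 bp peak (chr6:45295972-45296603, touching an exon) held 9 and 39 counts in Par, 4 and 20 in LM2, with 0 and 1 in BrM2, or 2.58 and 5.81, 0.918 and 2.03, and 0 and 0.124 CPM. Every Par library was above every LM2 library, and these above BrM2. The rate in Par was 61.6 times that in BrM2, with a 95% counting interval from 10.6 to 2485 that reflects the single BrM2 read. The LM2 rate was 22.3 times that in BrM2 (3.64 to 917). In DESeq2 the log2 difference between BrM2 and Par was -5.78 (SE 1.57, adjusted p = 0.0105), and the call was lost without BrM2 replicate 1 (adjusted p = 0.15) or BrM2 replicate 2 (0.177). Without Par replicate 2 no adjusted p was given. BrM2 against LM2 gave -4.32 (SE 1.59, adjusted p = 0.138), which passed only with the replicate number as a block (-4.30, SE 1.49, adjusted p = 0.0225).

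Over the same region the H3K27ac peak fell as well. At chr6:45294768-45297688 it held 19.2 and 16.7 CPM in Par, 9.46 and 7.71 in LM2, with 3.31 and 4.01 in BrM2, with no overlap between lines. The log2 difference was -2.32 (SE 0.52, adjusted p = 7.59e-04) for BrM2 against Par, a level 0.201 times that of Par. For LM2 against Par it was -1.12 (SE 0.44, adjusted p = 0.169). The BrM2 call was lost without BrM2 replicate 1 (adjusted p = 0.175) or Par replicate 1 (0.0665). Its neighbours did not move with it: 73 of 163 other H3K27ac peaks within 2.5 Mb were higher and 90 lower, with a median of -0.05. A lower count can mean fewer cells with the mark or less mark per cell, and these cannot be told apart in bulk libraries.

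The proximal RUNX2 promoter kept most of its H3K4me3. The peak of 5765 bp at chr6:45387094-45392858 held 274 and 330.0 CPM in Par, 259.8 and 271 in LM2, with 191 and 251 in BrM2. Both BrM2 values were below all others. The log2 difference between BrM2 and Par was -0.52 (SE 0.29, adjusted p = 0.584), and with the replicate block it was -0.52 (SE 0.105, adjusted p = 2.3e-05). With the block BrM2 was also lower than LM2 (-0.36, SE 0.10, adjusted p = 0.00442). H3K27ac over the proximal promoter (chr6:45386303-45392896) was 102 and 146 CPM in Par, 103 and 137 in LM2, with 90.7 and 116 in BrM2. These ranges overlapped, and no contrast passed.

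Both RUNX1 promoters carried the mark in every library. The proximal peak, at chr21:36252526-36264942, was 12417 bp long, longer than 99.9% of H3K4me3 peaks, and held 304 and 312 CPM in Par, 284 and 281 in LM2, with 288 and 242 in BrM2. BrM2 against Par gave -0.27 (SE 0.33, adjusted p = 0.992) and, with the replicate block, -0.29 (SE 0.09, adjusted p = 0.011). The distal peak (chr21:36418575-36421967) held 31.0 and 47.4 CPM in Par, 26.6 and 39.5 in LM2, with 38.2 and 46.7 in BrM2, with overlapping lines. In LM2 neither RUNX1 promoter passed in either fit. RUNX3 had 1 weak peak (chr1:25258431-25259233), in an intron 1664 bp from the nearest start, with 2.29 and 5.51 CPM in Par, 2.525 and 2.24 in LM2, with 1.96 and 3.97 in BrM2. No other RUNX3 start had an H3K4me3 peak within 2 kb.

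Among the ETS genes, ETS1 and ELK3 moved in opposite directions in BrM2, though only with the replicate block. The main ETS1 promoter (chr11:128386812-128393298) held 193 and 167 CPM in Par, 166 and 162 in LM2, with 136 and 143 in BrM2, so that BrM2 was below the other lines. The log2 difference from Par was -0.44 (SE 0.33, adjusted p = 0.814), and with the block -0.42 (SE 0.11, adjusted p = 0.00239). Against LM2 the block gave -0.32 (SE 0.11, adjusted p = 0.0232). At ELK3 (chr12:96587329-96592344) the values were 159 and 151 CPM in Par, 182 and 170 in LM2, with 218 and 212 in BrM2, with no overlap between lines. There the block gave 0.41 (SE 0.10, adjusted p = 7.09e-04) for BrM2 against Par, against an adjusted p of 0.858 without it.

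These small changes moved with the regions around the genes. Of 28 other H3K4me3 peaks within 2.5 Mb of the main ETS1 peak, 24 were lower in BrM2 than in Par, with a median of -0.47. Of 41 around ELK3, 35 were higher, with a median of 0.29, and of 50 around the RUNX1 proximal peak, 36 were lower, with a median of -0.26. When the median of the surrounding 5 Mb was removed in the fit with the block, an alternative added after the data were seen, ETS1 gave 0.04 (adjusted p = 0.905), ELK3 0.12 (0.59) and RUNX1 -0.04 (0.891), and none was called. The RUNX2 proximal promoter kept -0.50 (adjusted p = 8.16e-05) and its distal promoter -5.77 (0.00194). The part of the regional values in these results was not tested.

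ETS1 had a further promoter whose mark was seen mostly in LM2. The 410 bp peak at its most distal start (chr11:128457113-128457522) held 0 and 5 counts in Par, 11 and 26 in LM2, with 1 and 1 in BrM2, or 0 and 0.745, 2.525 and 2.64, and 0.218 and 0.124 CPM. The LM2 libraries stood above the others. The rate in LM2 was 17.2 times that in BrM2, with a 95% counting interval from 4.435 to 147. BrM2 against LM2 gave -4.10 (SE 1.49, adjusted p = 0.129) and passed with the block (-4.14, SE 1.48, adjusted p = 0.0282), and no longer did so with regional medians removed as well (0.0748). LM2 against Par gave 2.71 (SE 1.31, adjusted p = 0.509). No H3K27ac peak overlapped it. The remaining ETS1 peak, in an intron 1128 bp from a start (chr11:128376417-128379419), held 5.45 and 5.96 CPM in Par, 1.61 and 6.61 in LM2, with 4.80 and 11.03 in BrM2, with overlapping lines.

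The PEA3 genes showed no H3K4me3 difference called by DESeq2 with or without the block. edgeR with the block called ETV5 in LM2 against Par and the main ETV4 peak in BrM2 against both other lines. DESeq2 with the block and 5 Mb medians removed called ETV1 in LM2 against Par and BrM2 against LM2. The share of all peaks called by those fits was not computed, here or below. ETV1 (chr7:14024495-14031874) held 50.2 and 108 CPM in Par, 48.0 and 83.5 in LM2, with 58.5 and 102 in BrM2, so replicates of a line differed more than lines did. ETV5 (chr3:185824556-185828800) held 143 and 166 CPM in Par, 109 and 141 in LM2, with 132.5 and 169.8 in BrM2. The main ETV4 peak (chr17:41620793-41624810) held 72.8 and 89.1 CPM in Par, 75.1 and 88.4 in LM2, with 93.4 and 114 in BrM2. That peak also covers exon sequence of DHX8, an RNA helicase gene of the spliceosome, so its reads cannot be given to 1 gene. BrM2 exceeded Par there by 0.30 (SE 0.30, adjusted p = 0.959; 0.119 with the block). A second ETV4 peak (chr17:41607340-41608539) held 1.61 to 5.08 CPM over the 6 libraries.

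Counted over the promoters, calls were few. In DESeq2 without the block, 0 of 13 member peaks were called for LM2 against Par, where 2.51% of all peaks were called (1 of 13 at an unadjusted p under 0.05; 0 in edgeR). For BrM2 against Par 1 of 13 was called, the RUNX2 distal promoter, and it was lower; over all peaks 3.61% were called and 0.791% were called lower. For BrM2 against LM2 the count was 0 of 13, against 3.18% of all peaks (2 of 13 at an unadjusted p under 0.05; 0 in edgeR). With the replicate block the counts were 0, 5 (1 higher, 4 lower) and 4 (all lower), against 14.4%, 17.7% and 22.0% of all peaks, with 13.0% called lower in the last contrast. The median log2 difference of the members was -0.14, -0.11 and 0.18 in the 3 contrasts, against 0.01, -0.02 and -0.05 over all peaks tested. The contrasts against Par share its libraries.

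**Figure D2:**
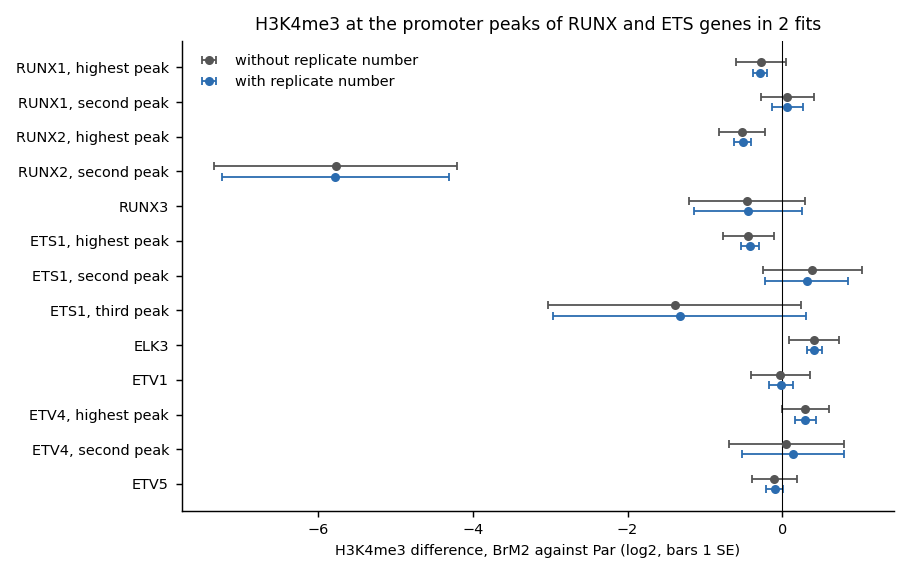
Log2 difference in H3K4me3 between BrM2 and Par (horizontal axis, bars 1 SE) at the 13 promoter peaks, in the fits without (grey) and with (blue) the replicate number. The estimates barely differ between fits, but the bars shorten with the number: at the RUNX2 highest peak, its proximal promoter, the SE goes from 0.295 to 0.105.

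By the rule for likeness, the promoter peaks whose log2(CPM + 1) tracked the RUNX2 distal promoter best over the 6 libraries were at MARK2, a polarity kinase gene (Pearson's r = 0.998), TSPAN12, a tetraspanin gene (0.99), and NIPBL, the cohesin loader gene (0.986), of 13556 compared. MARK2 held 5.73 and 12.2 CPM in Par, 1.61 and 4.07 in LM2, with 0.218 and 0.372 in BrM2. The other promoters kept most of the mark in BrM2. TSPAN12 held 59.3 and 65.7 CPM in Par, 53.9 and 56.3 in LM2, with 45.2 and 47.5 in BrM2. NIPBL held 204 and 217 CPM in Par, 177 and 190 in LM2, with 158 and 155 in BrM2. These values describe 6 libraries and share their depth.

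H3K27ac was spread over many more sites. RUNX1 had 38 member peaks, RUNX2 23, ETV1 18, ETS1 15, FLI1 14, ELK3 12, RUNX3 8, ETV4 5, and ERG and ETV5 2 each. Of the 137, 87 lay in introns, 24 touched exons, 26 were intergenic and 23 overlapped an H3K4me3 peak. The number for RUNX1 rests on annotated starts far upstream: 22 of its peaks lay on the gene side of the distal promoter and 16 upstream of it, 12 of them by over 100 kb. Median length was 1140 bp and median level 4.39 CPM per kb, against 1468 bp and 4.90 over all H3K27ac peaks, and 9 members were longer than 10 kb.

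The strongest peak of most genes lay over a promoter and differed little. It held 140 to 208 CPM over the 6 libraries at RUNX1 (chr21:36251786-36264538), 128 to 199.6 at ETS1 (chr11:128382892-128396846), 81.2 to 119 at ETV1, 59.2 to 90.6 at ETV4 and 49.96 to 66.0 at ETV5. At RUNX2 it was a 22168 bp peak downstream of the proximal promoter (chr6:45397123-45419290), with 187 and 166 CPM in Par, 138 and 128 in LM2, with 134 and 116 in BrM2. Its differences of -0.47 for LM2 and -0.49 for BrM2 against Par did not pass in DESeq2 (adjusted p = 0.421 and 0.321), and edgeR with the block called both. FLI1 had a 14724 bp intronic peak (chr11:128576579-128591302) with 155 and 138 CPM in Par, 103 and 111 in LM2, with 126 and 118 in BrM2, although no H3K4me3 peak lay at its starts. edgeR with the block called it in LM2 against Par. A 1082 bp H3K4me3 peak inside it held 0.873 to 4.17 CPM.

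ERG and RUNX3 were weak. The stronger of the 2 ERG peaks held 1.33 to 4.84 CPM. RUNX3 member peaks held from 0.261 CPM to 17.3 CPM. By fitted log2 difference 8 of 8 were higher in LM2 than in Par (0.07 to 2.44) and 8 of 8 lower in BrM2 than in LM2 (-2.06 to -0.02). Only 6 of the 8 had counts high enough to be tested, and these ranged from 0.07 to 2.04 in LM2 against Par. None passed in DESeq2 with or without the block. The tested peak with the highest difference in LM2, an intronic peak at chr1:25241242-25242170, held 0.912 and 1.57 CPM in Par, 5.27 and 5.32 in LM2, with 1.02 and 1.504 in BrM2, with both LM2 values above the rest (2.04, adjusted p = 0.203 in DESeq2 for LM2 against Par). edgeR called it higher in LM2 than in Par (adjusted p = 0.0317), and edgeR with the block called it and the RUNX3 peaks starting at 25281137 and 25291240. Summed over its peaks RUNX3 had 31.1 to 34.7 CPM in Par, 45.0 to 64.6 in LM2 and 33.7 to 37.1 in BrM2.

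**Figure D3:**
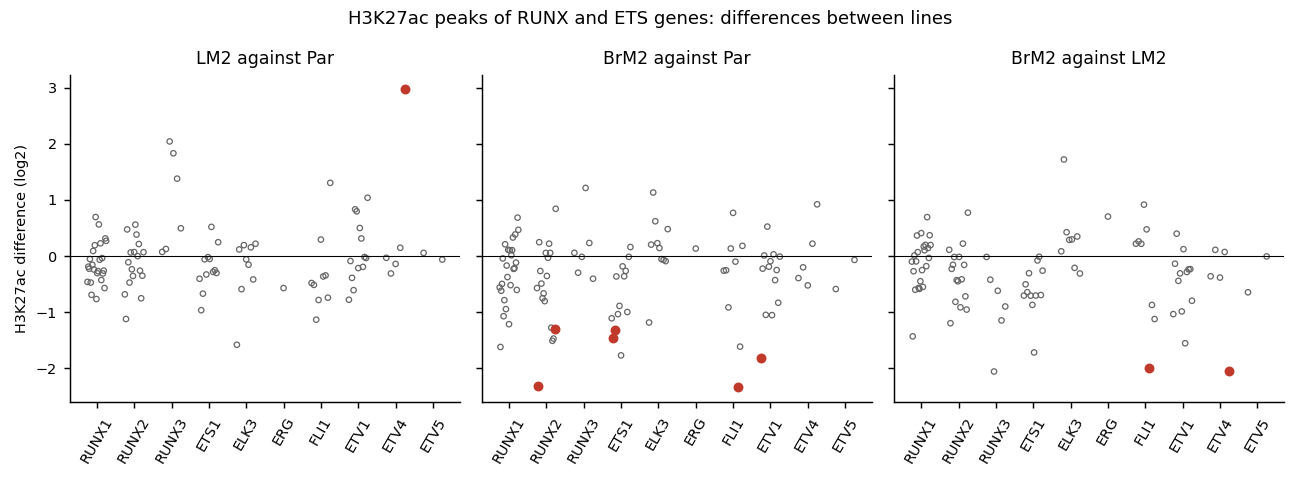
Log2 difference in H3K27ac (vertical axis) of every tested member peak, by gene, in the 3 contrasts; filled points were called by DESeq2 without the block. The filled point above 0 is the ETV4 peak in LM2 at 2.97, and the 6 filled points for BrM2 against Par lie between -2.34 and -1.30.

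The clearest gain was in LM2, at a peak assigned to ETV4. It lies 11531 bp from the nearest ETV4 start, in an intron of DHX8 (chr17:41668519-41670207, 1689 bp). It held 1.37 and 2.35 CPM in Par, 13.95 and 16.2 in LM2, with 3.82 and 3.01 in BrM2, a mean of 1.86 ± 0.69, 15.1 ± 1.604 and 3.42 ± 0.58 (SD, n = 2). LM2 stood apart from both other lines. LM2 was 7.83 times Par (log2 2.97, SE 0.61, DESeq2 adjusted p = 1.93e-04), and BrM2 was 0.242 times LM2 (-2.05, SE 0.58, adjusted p = 0.0226). BrM2 against Par gave 0.92 (SE 0.68, adjusted p = 0.591). The LM2 call missed the threshold without LM2 replicate 1 (adjusted p = 0.0507), LM2 replicate 2 (0.0724) or Par replicate 1 (0.0647). The BrM2 against LM2 call was lost without any 1 library of these lines (adjusted p from 0.336 to 0.556).

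The central 200 bases of this peak are shown with those of the FLI1 peak described next, since they are the H3K27ac member sites that DESeq2 called between BrM2 and LM2 without the block. Capitals mark the same motifs.
Peak assigned to ETV4, centre, chr17:41669263-41669462, plus strand: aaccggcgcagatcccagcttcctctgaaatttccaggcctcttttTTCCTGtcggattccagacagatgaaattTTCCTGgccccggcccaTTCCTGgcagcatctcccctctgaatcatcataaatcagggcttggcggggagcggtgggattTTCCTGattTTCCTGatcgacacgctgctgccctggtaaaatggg
FLI1 intronic peak, centre, chr11:128659963-128660162, plus strand: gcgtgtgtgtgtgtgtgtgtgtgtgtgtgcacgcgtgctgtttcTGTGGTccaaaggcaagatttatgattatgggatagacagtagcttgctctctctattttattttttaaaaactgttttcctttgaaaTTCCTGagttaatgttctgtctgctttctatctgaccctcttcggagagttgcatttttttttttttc
The first window held 5 matches to CAGGAA on the opposite strand (TTCCTG) and no RUNX match. The second held 1 TGTGGT and 1 TTCCTG. Over whole peaks, RUNX matches numbered 0.808 per kb in the 137 member peaks and 0.917 in all H3K27ac peaks, and ETS matches 1.38 and 1.33, at a GC content of 44.2% and 47.3%.

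H3K27ac was called lower in BrM2 than in Par at 1 FLI1, 2 ETS1 and 1 ETV1 peaks. The FLI1 peak (chr11:128658994-128661133), in an intron, held 9.81 and 17.0 CPM in Par, 9.61 and 12.5 in LM2, with 3.06 and 2.005 in BrM2. Both BrM2 libraries were below the others. The log2 difference was -2.34 (SE 0.60, adjusted p = 0.00428) from Par and -2.00 (SE 0.60, adjusted p = 0.0345) from LM2. The first call was lost without BrM2 replicate 1 (adjusted p = 0.169), BrM2 replicate 2 (0.117) or Par replicate 2 (0.217), and the second without any 1 of the 6 libraries (adjusted p from 0.0663 to 0.565). Within 2.5 Mb, 88 of 114 other peaks were lower in BrM2 than in Par, with a median of -0.47. With the 5 Mb median removed the difference from Par was -1.87 (adjusted p = 0.0475) and that from LM2 -1.84 (0.097).

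ETS1, which lies near FLI1 on chromosome 11, fell at a pair of sites around its 3′ end. A 17353 bp peak (chr11:128325306-128342658, touching exons) held 152 and 86.4 CPM in Par, 67.75 and 89.35 in LM2, with 54.8 and 40.6 in BrM2. BrM2 lay below Par and LM2 (-1.31, SE 0.34, adjusted p = 0.00446 against Par). The intergenic peak beside it (chr11:128321131-128324272) held 29.2 and 23.0 CPM in Par, 11.9 and 16.2 in LM2, with 7.39 and 12.03 in BrM2 (-1.47, SE 0.43, adjusted p = 0.0178 against Par). Both lines other than Par were below Par there, and LM2 and BrM2 overlapped. Of 121 other peaks within 2.5 Mb, 94 were lower, with a median of -0.55. With the 5 Mb median removed neither passed (-0.80, adjusted p = 0.216, and -0.95, 0.274). The longer peak was also lost without BrM2 replicate 2 (adjusted p = 0.194) or Par replicate 1 (0.324). The intergenic one was lost without every library but LM2 replicate 2 (0.0534 to 0.596).

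At ETV1 an intergenic peak 82363 bp from the nearest start (chr7:13860651-13863760) held 23.5 and 13.05 CPM in Par, 15.7 and 6.38 in LM2, with 5.35 and 5.01 in BrM2. BrM2 was lower than Par (-1.81, SE 0.55, adjusted p = 0.0243), a call lost without any 1 Par or BrM2 library (adjusted p from 0.0565 to 0.492) and with chromosome medians removed (0.0908). A second, intronic ETV1 peak (chr7:13984572-13987501) held 18.9 and 7.05 CPM in Par, 25.9 and 12.5 in LM2, with 6.88 and 5.51 in BrM2. It was lower in BrM2 than in LM2 only with the block (-1.55, SE 0.46, adjusted p = 0.0198; 0.103 without it). RUNX2 had a second called site, in an intron 80949 bp from a start (chr6:45471263-45474924), with 20.1 and 20.4 CPM in Par, 15.2 and 18.1 in LM2, with 9.43 and 6.52 in BrM2. Its difference of -1.30 (SE 0.43, adjusted p = 0.0469) was lost without each of the 6 libraries in turn (adjusted p from 0.103 to 0.44).

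**Figure D4:**
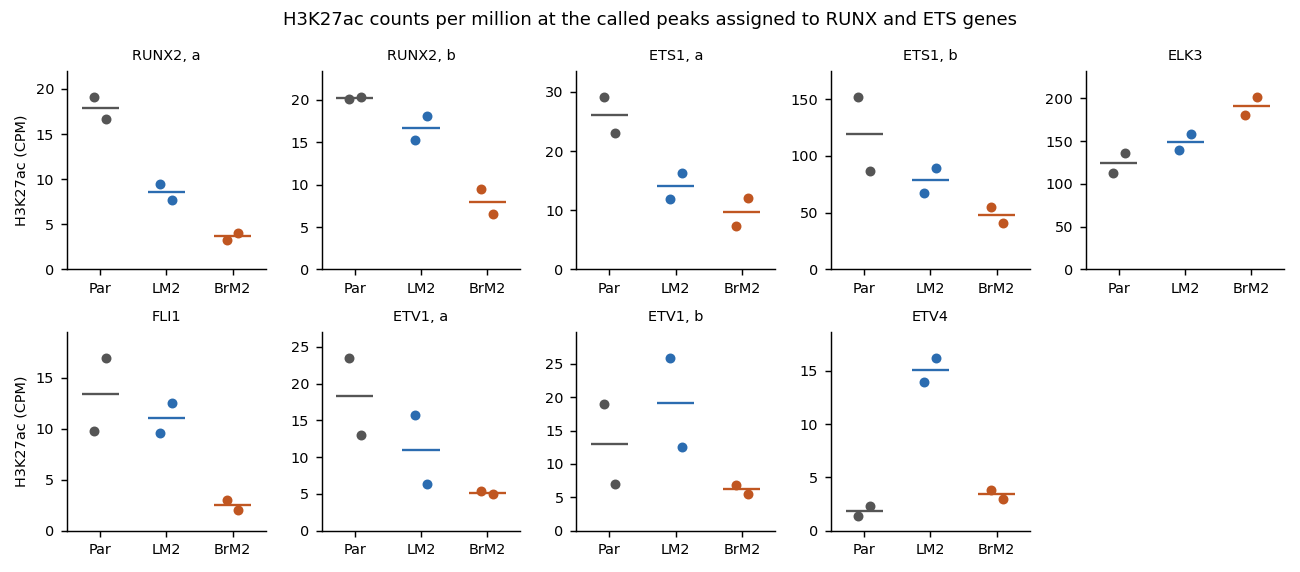
H3K27ac CPM (vertical axis, from 0, own scale in each panel) at the 9 member peaks called in any contrast with or without the replicate block, with points for the 2 replicates of each line and a line at their mean. RUNX2 a is the distal promoter and b the intronic peak; ETS1 a is the intergenic and b the long peak; ETV1 a is the intergenic and b the intronic peak. Only the ETV4 panel is highest in LM2 with both points apart, at 13.95 and 16.2 CPM, and only ELK3 is highest in BrM2, at 181 and 202.

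ELK3 was the exception in BrM2. H3K27ac over its promoter (chr12:96586051-96596376, 10326 bp) held 113 and 136 CPM in Par, 139.7 and 159 in LM2, with 181 and 202 in BrM2, so BrM2 was above all other libraries. It passed with the replicate block (0.63, SE 0.18, adjusted p = 0.0123) and not without it (0.62, SE 0.26, adjusted p = 0.162). Other peaks within 2.5 Mb moved the same way, 91 of 112 higher with a median of 0.46. With the block in the model and the 5 Mb median removed, ELK3 was at 0.20 (adjusted p = 0.709).

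**Figure D5:**
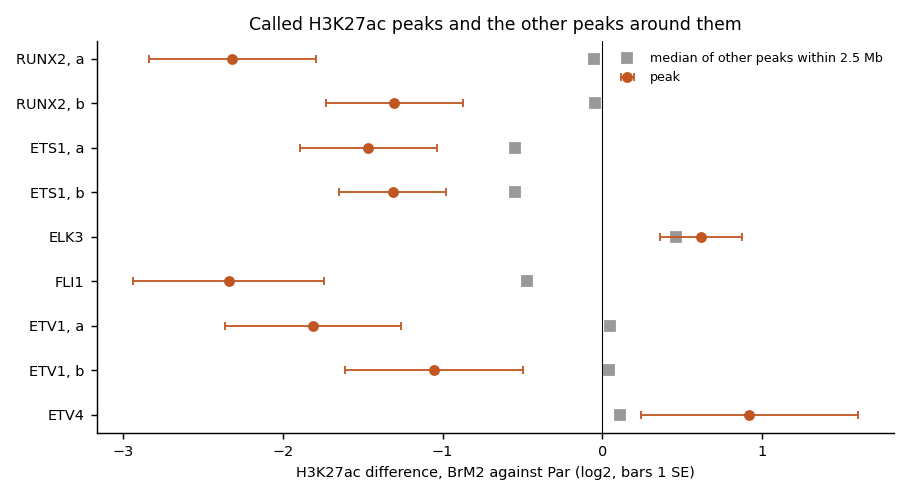
Log2 difference in H3K27ac between BrM2 and Par (horizontal axis) for the same 9 peaks (circles, bars 1 SE) and the median of the other H3K27ac peaks within 2.5 Mb (squares). The squares of ETS1 and FLI1 lie at -0.55 and -0.47 and that of ELK3 at 0.46, whereas those of RUNX2, ETV1 and ETV4 lie between -0.05 and 0.11.

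Over all tested member H3K27ac peaks the share called without the block was 1.02%, 5.88% and 2.15% in the 3 contrasts. The share for BrM2 against Par was slightly above that of all peaks, and the others were below it. For LM2 against Par 1 of 98 tested members was called, higher, where 3.63% of all peaks were called and 2.72% were called higher. For BrM2 against Par 6 of 102 were called, all lower, where 5.29% were called and 1.67% called lower. For BrM2 against LM2 2 of 93 were called, both lower, where 2.94% were called and 1.22% called lower. The members not tested had counts too low for an adjusted p, and a peak can pass that filter through the line where it is high. With the block 1 of 96 (higher), 7 of 98 (1 higher, 6 lower) and 3 of 83 (all lower) were called, against 5.44% of all peaks (3.60% higher), 8.13%, and 6.17% (2.52% lower). The median difference of the tested members was -0.10, -0.23 and -0.24 in the 3 contrasts, against -0.04, -0.01 and 0.01 over all peaks tested. By gene, 12 of 13 tested ETS1 peaks and 13 of 18 of RUNX2 were below Par in BrM2, with medians of -0.89 and -0.53, and 6 of 10 of ELK3 were above it, with a median of 0.17.

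Of the 21 other ETS family genes, 15 had a promoter H3K4me3 peak. For LM2 against Par 2 of 17 tested peaks were called, both lower. EHF, an epithelial ETS factor, held 22.35 and 47.7 CPM in Par, 2.295 and 7.93 in LM2, with 23.35 and 40.4 in BrM2 (-2.71, SE 0.49, adjusted p = 1.05e-05). SPDEF, another epithelial member, held 2.58 and 10.4, 0.2295 and 1.42, and 6.11 and 14.6 CPM (-2.81, SE 0.80, adjusted p = 0.0221). The same genes were the 2 of 18 called for BrM2 against LM2, both higher (2.53 and 3.43, adjusted p = 3.66e-05 and 0.00104), and 0 of 17 were called for BrM2 against Par. Over all H3K4me3 peaks 2.51%, 3.18% and 3.61% were called in these contrasts. With the block, 4 of 17 were called for LM2 against Par (2 higher, 2 lower), 5 of 17 for BrM2 against Par (all lower) and 9 of 17 for BrM2 against LM2 (2 higher, 7 lower), against 14.4%, 17.7% and 22.0% of all peaks. Luminal markers moved in the same libraries, in both directions: for LM2 against Par 2 of 15 tested peaks were called, CLDN4, a tight junction gene, lower (-3.44, SE 0.46, adjusted p = 7.64e-11) and ESR1, the estrogen receptor gene, higher (2.52, SE 0.42, adjusted p = 1.06e-06). For BrM2 against LM2 2 of 16 were called, both higher, at CLDN7 (1.54) and at a weak FOXA1 side peak (3.95). That side peak lay 1759 bp from the nearest protein-coding start and held 0 and 0.711 CPM in LM2, with 6.77 and 6.94 in BrM2. The FOXA1 peak over a start was not called in this contrast. For BrM2 against Par 4 of 16 were called. There CLDN7 (1.28), the FOXA1 peak over a start (1.45) and ESR1 (1.62) were higher and CLDN4 (-2.045) lower, so CLDN4 and ESR1 differed from Par in both lines. The part of these markers in the EHF and SPDEF values was not tested. Of their 99 H3K27ac peaks, 2 of 75 tested fell in LM2 (ETV6, EHF), 2 of 79 fell in BrM2 against Par (ELF3, ETV6) and 1 of 69 rose in BrM2 against LM2 (EHF), against 3.63%, 5.29% and 2.94% of all H3K27ac peaks.

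RUNX partners and co-repressors had 11 H3K4me3 peaks. Without the block 1 of 10 tested was called for LM2 against Par (2.51% of all peaks). For BrM2 against Par (3.61%) and BrM2 against LM2 (3.18%) the count was 0 of 11. With the block 3 of 10 (all higher), 2 of 11 (both lower) and 5 of 11 (all lower) were called in the same order. Over all peaks 14.4%, 17.7% and 22.0% were called with the block, with 13.0% called lower in the last contrast. The call without the block was at TLE2, a Groucho co-repressor gene, which held 8.88 and 14.45 CPM in Par and 25.02 and 34.45 in LM2 (1.375, SE 0.39, adjusted p = 0.0238). Without the block 0 of 37, 2 of 39 (1 higher, 1 lower) and 1 of 33 (lower) of the list's H3K27ac peaks were called. Over all H3K27ac peaks 3.63%, 5.29% and 2.94% were called. With the block 1 of 35 (higher), 4 of 37 (1 higher, 3 lower) and 1 of 32 (lower) were called. The shares of all peaks were then 5.44%, 8.13% and 6.17%. An H3K27ac peak assigned to TLE1, 76869 bp from the nearest protein-coding start, rose in BrM2 from 0.456 and 1.04 CPM in Par to 10.2 and 11.5 (3.88, SE 0.80, adjusted p = 1.55e-04). Another at HDAC4, a class IIa deacetylase gene, fell from 25.8 and 34.45 to 11.5 and 9.52 (-1.499, SE 0.38, adjusted p = 0.00426).

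Genes of the ERK cascade and its feedback, which acts on ETS proteins, had H3K4me3 at 22 of 22 promoters. Without the block 0 of 23 peaks were called for LM2 against Par, BrM2 against Par or BrM2 against LM2. Over all H3K4me3 peaks 2.51%, 3.61% and 3.18% were called. With the block 6 (1 higher, 5 lower), 9 (all lower) and 10 (2 higher, 8 lower) of the 23 were called. The shares of all peaks were then 14.4%, 17.7% and 22.0%. Of their H3K27ac peaks 5 of 115 were called in LM2 (4 higher, 1 lower), 5 of 120 in BrM2 against Par (all higher) and 4 of 108 in BrM2 against LM2 (3 higher, 1 lower), where 3.63%, 5.29% and 2.94% of all peaks were called. With the block these became 8 of 111 (4 higher, 4 lower), 11 of 115 (6 higher, 5 lower) and 13 of 98 (12 higher, 1 lower), against 5.44%, 8.13% and 6.17% of all peaks. A peak assigned to SPRY4, a feedback inhibitor gene, lay 95613 bp from the nearest protein-coding start. It rose in LM2 from 12.1 and 13.8 CPM in Par to 61.1 and 66.2, with 11.2 and 12.03 in BrM2 (2.23, SE 0.33, adjusted p = 1.64e-08). Other SPRY4 peaks were called in both directions in LM2. That 33347 bp away was higher (1.78, SE 0.57, adjusted p = 0.0475). That 58294 bp away was lower, with 44.5 and 49.6 CPM in Par and 27.1 and 17.0 in LM2 (-1.15, SE 0.36, adjusted p = 0.0412). A peak at EGFR, the receptor gene, rose from 9.81 and 9.40 CPM in Par to 63.5 and 65.2 in BrM2, with 42.95 and 33.0 in LM2, also above Par (2.75, SE 0.34, adjusted p = 9.27e-13 for BrM2 against Par).

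Among 17 genes known as targets of RUNX or ETS factors, 7 had a promoter H3K4me3 peak. SPP1, IBSP, BGLAP and MMP13, which RUNX2 drives in bone, had none, nor did COL10A1, MMP1, MMP3, MMP9, ANGPT2 and TIE1. For LM2 against Par 0 of 8 tested H3K4me3 peaks were called, where 2.51% of all peaks were called. With the block 1 (higher), 4 (2 higher, 2 lower) and 3 (1 higher, 2 lower) of 8 were called in the 3 contrasts. The shares of all peaks were then 14.4%, 17.7% and 22.0%. Without the block FLT1, a VEGF receptor gene, was the 1 of 8 called for BrM2 against Par and against LM2, where 3.61% and 3.18% were called. It held 0.287 and 0.298 CPM in Par, 0.459 and 1.12 in LM2, with 14.4 and 7.93 in BrM2 (5.26, SE 1.065, adjusted p = 9.55e-05 against Par). Of these genes' H3K27ac peaks 2 of 38 rose in LM2, assigned to FLT1 and MMP3, and 1 of 41 rose in BrM2, assigned to FLT1. The FLT1 peak, the same in both lines, lay 78870 bp from the nearest protein-coding start. For BrM2 against LM2 2 of 37 were called, both lower and at ANGPT2. Over all H3K27ac peaks 3.63%, 5.29% and 2.94% were called in these contrasts. With the block 2 of 37 (both higher), 1 of 38 (higher) and 3 of 31 (1 higher, 2 lower) were called. The shares of all peaks were then 5.44%, 8.13% and 6.17%.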

How the data were processed

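ChIP-seq of H3K4me3 and H3K27ac in Par, LM2 and BrM2 gave 12 libraries with counts, 2 per line and mark; 3 input samples were not analysed here. The deposited values are raw read counts per peak. Per the labels and the methods, the authors trimmed with Trimmomatic 0.32, aligned to hg19 with Bowtie2 2.3.4.3, removed duplicates with Picard, called broad peaks with MACS2 2.1.2 on merged libraries and counted reads with featureCounts 1.6.0. Since peaks were called on merged libraries, a peak in the list need not be present in every line. The labels' name for the merged H3K27ac list also includes a BoM sub-population, not analysed here. The labels and the methods differ in the fixation time, and that of the labels is given.

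Peaks were assigned with GENCODE release 44 lifted to GRCh37. Starts of all transcripts of the listed genes were used, and nearest starts were taken over protein-coding genes. The members and gene lists were chosen with earlier results of these data known. All 6 libraries of a mark entered 1 fit on all peaks in DESeq2 1.42.0 (R 4.3.3; Wald test, line alone in the model, 3 residual degrees of freedom). Calls were at a Benjamini-Hochberg adjusted p under 0.05 over all peaks that DESeq2 gave an adjusted p. edgeR 4.0.16 (quasi-likelihood), a block for replicate number, leaving out each library, a minimum of 10 counts in every library, TMM factors and removal of chromosome or 5 Mb medians were the alternatives. Where a line was left with 1 library, that library was assumed to vary like the others. Scripts were tested on simulated data.

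Deviations of same-numbered libraries from their line's mean correlated at 0.708 to 0.758 between lines over 18457 H3K4me3 peaks and at 0.286 to 0.386 over 47281 H3K27ac peaks. All were over 0.1, so the replicate numbers were taken to pair the libraries; the labels do not state what a number shares. Replicates of a line correlated at 0.928 to 0.978 and differed by more than counting noise (chi-square per degree of freedom 2.29 to 13.0). Counting intervals are exact at 95% and cover counting error only. Every member H3K4me3 peak was named. Of member H3K27ac peaks, the highest of each gene and those called with or without the block at a mean normalized count of at least 20 were named, at most 4 per gene. Of other lists, called peaks were named, at most the 2 highest and 2 lowest per list, mark and contrast. Likeness was Pearson's r of log2(CPM + 1), a pseudocount of 1, among promoter peaks averaging at least 1 CPM. A further promoter window is not reported here.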

Additional observations from a re-analysis of the deposited data

Results flagged for a closer look

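A pair of effects against the same line differed between LM2 and BrM2 by the DESeq2 test of the difference itself. The FLI1 intronic H3K27ac peak differed by -2.00 (log2, BrM2 against LM2) and the peak assigned to ETV4 by -2.05. Each lost its call when any 1 library of the lines compared was left out.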

How the results depend on the processing

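With the replicate block the number of H3K4me3 members called was 0 for LM2 against Par, 5 for BrM2 against Par and 4 for BrM2 against LM2, and the block ended no call made without it. edgeR with the block called 5, 6 and 8 H3K4me3 members and 12, 17 and 12 H3K27ac members; edgeR alone called 2 H3K27ac members for LM2 against Par, the ETV4 peak and a RUNX3 intronic peak. The block with 5 Mb medians removed, added after the data were seen, called 1, 2 and 3 H3K4me3 members. For edgeR and for fits with medians removed the share of all peaks called was not computed. Their member counts therefore stand without a background. A minimum of 10 counts in every library left 0 calls among H3K4me3 members for BrM2 against Par, and 0 among H3K27ac members for LM2 against Par and BrM2 against LM2. Removing 5 Mb medians left 3 H3K27ac calls for BrM2 against Par and 1 for BrM2 against LM2, and chromosome medians left 1 for the latter. Leaving out each library gave 0 to 1 H3K4me3 calls for BrM2 against Par, and 0 to 1, 1 to 5 and 0 to 1 H3K27ac calls in the 3 contrasts. The main ETS1 promoter changed sign with 5 Mb medians removed, to 0.018 against Par and 0.015 against LM2, and to 0.044 and 0.031 with the block as well; the cause was not tested. Of 269 recomputed single-peak values 194 kept direction and side of the threshold, 47 lost the call, 24 gained one and 4 changed sign. Of the 20 results behind these values, 10 were called only with the block, so for them keeping the side meant staying uncalled. Their gain of a call under the block follows from how the results were chosen. The tally is therefore no measure of how stable the calls were. The RUNX2 and ETS1 distal promoters rest on few counts, which leaves their folds wide counting intervals.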
